A study of Mus musculus with 41 samples.

Results

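Sex differences in liver gene expression were measured in vehicle-treated diet-induced obese (DIO) mice, in 11 males and 10 females of the strain given in the labels as C57B/6J. Autosomal genes with a mean of at least 0.5 CPM (gene counts expressed relative to library size) over all 41 livers of the series were taken, which left 12760 of the 48182 autosomal genes in the table, and 35422 were not tested. Both groups had eaten a 60% high-fat diet for about 10 weeks from the age of 10 weeks and had been given 2 i.p. injections of saline, the vehicle of the study. Livers were collected 2 hours after the last injection, in the morning, and the labels number the liver samples within each group. The remaining 11 males and 9 females had been given recombinant human FGF21 at 0.1 mg/kg on the same schedule, and were used here for the shared estimate of the spread and to ask whether each sex difference was found again. All mice ate the high-fat diet, so no lean control was part of the comparison. The labels give neither the estrous stage of the females nor the litters.

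The liver of the mouse is among the most sexually dimorphic organs outside the reproductive tract. Growth hormone is released by the pituitary in separate pulses in males and more continuously in females, and hepatocytes read this pattern through the growth hormone receptor, the kinase JAK2, and the transcription factor STAT5b. Known sex-biased products include cytochrome P450s, which hydroxylate steroids, fatty acids, and drugs, sulfotransferases, the urinary pheromone carriers called major urinary proteins, and organic anion transporters. BCL6, CUX2, and HNF6 (Onecut1) are other transcription factors known to act on such genes, and CUX2 is largely a female factor.

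The depth of the vehicle libraries was 2425623 to 4168270 counts in males (median 2945950) and 1781653 to 4031033 in females (median 2969232), so that 3 counts, the limit that a count of 0 allows, came to a median of 1.03 CPM in males and 0.979 CPM in females. Mitochondrial genes took 16.3% to 27.6% of the counts of male libraries and 18.4% to 25.5% of those of female libraries. No pair of vehicle libraries of 1 sex differed by as little as counting noise (lowest chi-square per degree of freedom 4.06 over 100 pairs). The first principal component of the vehicle livers, with 47.9% of the variance, separated males from females. Alb, the hepatocyte product albumin, was measured at 15518 to 19600.0 CPM (median 18896) in males and 16079 to 21044 CPM (median 18732) in females, in keeping with liver tissue, and its ranges overlapped. Because whole tissue was sequenced, fewer cells of a type and less RNA per cell cannot be told apart.

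Of the autosomal genes tested, 919 were higher in vehicle males, which is 7.2% of them, and 894 were higher in vehicle females, which is 7.01% (edgeR quasi-likelihood test, Benjamini-Hochberg adjusted p under 0.05). A difference of 2-fold or more was found for 191 genes higher in males (1.5%) and 215 higher in females (1.68%). At 10-fold the counts were 36 and 29, and at 100-fold they were 7 and 11. The median size of a called difference was 0.51 on the log2 scale in the male direction and 0.63 in the female direction, and over all autosomal genes the median log2 fold change, males minus females, was -0.01. Every male was above every female for 77 genes (0.603%), and every female above every male for 83 genes (0.65%). All 160 of those genes were among the called ones. The even split depended on the scaling: with library totals in place of TMM factors, 523 genes were higher in males and 1561 in females, so that 25.1% of the calls were in the male direction in place of 50.69%, and the median log2 fold change of all autosomal genes moved to -0.12. Differences named here are relative to the TMM scale.

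**Figure D1:**
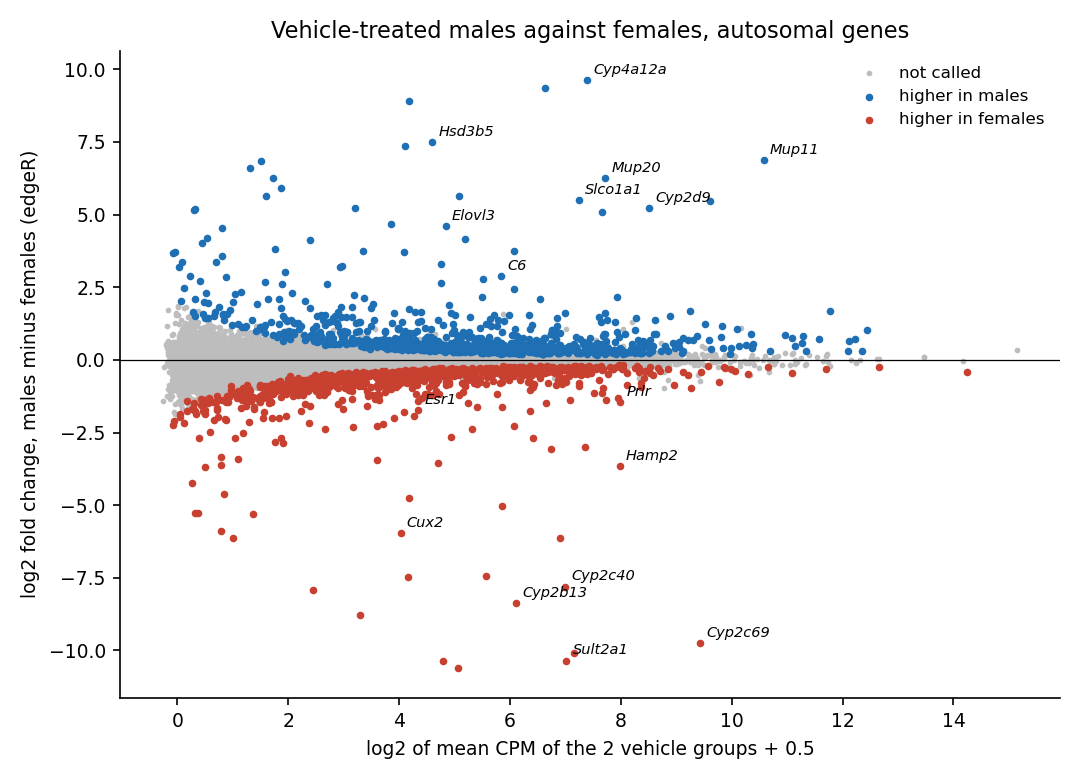
Log2 fold change of vehicle males minus vehicle females (vertical axis) against the log2 of the mean CPM of both groups (horizontal axis) for each of the 12760 autosomal genes tested, with called genes in blue (higher in males, 919) and red (higher in females, 894). Differences over 100-fold lie on both sides, and most called genes lie within 2-fold.

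The share of genes called ranged from 10.9% on chromosome 17 to 17.9% on chromosome 4 and 19.3% on chromosome 19. Chromosome 4 carries the major urinary protein and Cyp4a clusters, and chromosome 19 carries the Cyp2c and Slc22a26 to Slc22a30 clusters described with their families below. Outside the autosomes, 49 of 385 X-linked genes and 5 of 6 Y-linked genes tested were called.

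Cyp2d9 (chr15:82433437-82456845, GRCm38), a steroid 16-alpha-hydroxylase, had the smallest p among genes higher in males. It was measured at 376 to 981 CPM (median 741) in males and 12.9 to 26.4 CPM (median 16.98) in females, a 37.4-fold difference (log2 fold change 5.23 ± 0.19, adjusted p = 1.17e-23, edgeR). Mup20 (chr4:62050234-62054158), the pheromone protein also called darcin, was measured at 180.4 to 599 CPM (median 409) in males and 3.28 to 9.39 CPM (median 5.05) in females (log2 fold change 6.27 ± 0.25, adjusted p = 9.95e-22). In both genes the lowest male was far above the highest female. Abcg2 (chr6:58584523-58695676), an efflux pump for urate and drugs, had a smaller but tight difference, with 84.2 to 110.5 CPM (median 92.4) in males and 20.6 to 42.7 CPM (median 32.0) in females (log2 fold change 1.55 ± 0.09, adjusted p = 3.36e-22). Nat8, which acetylates cysteine conjugates, was measured at 14.3 to 35.9 CPM (median 24.5) in males and 0.35 to 2.92 CPM (median 0.83) in females (log2 fold change 4.67), again without overlap.

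Cyp4a12a (chr4:115299046-115332815), an omega-hydroxylase of arachidonic acid, ranged over 120.0 to 775 CPM (median 217) in males, while females were at 0 to 1.33 CPM (median 0). Pooled over livers the difference was 875-fold (95% counting interval 501 to 1694), where the interval covers counting error only. Its neighbour Cyp4a12b shares 40.1% of its 3′-end windows, stretches of 89 bases as long as a trimmed read, with it, so that reads of the pair can be exchanged between them. Aox3, an aldehyde oxidase, was at 227 to 444 CPM (median 365) in males and 120.0 to 145 CPM (median 136) in females (log2 fold change 1.32 ± 0.09, SE). Chpt1, the last enzyme of one route to phosphatidylcholine, was at 332 to 601 CPM (median 434) in males and 107 to 206 CPM (median 166) in females (log2 fold change 1.43 ± 0.10), and the gene overlaps Sycp3 on the opposite strand. None of these genes had a female within the range of the males.

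Other genes among the 20 with the smallest p in the male direction had equally separate groups. Scp2, a sterol carrier and peroxisomal thiolase of bile acid synthesis, was measured at 725 to 1002 CPM (median 853) in males and 411 to 601 CPM (median 465) in females, a log2 fold change of only 0.82 ± 0.07. A processed copy shares 39.0% of its 3′-end windows. Cyp2u1, a fatty acid hydroxylase, was at 22.2 to 95.1 CPM (median 46.8) in males against 1.99 to 9.80 CPM (median 4.95) in females (log2 fold change 3.31). Elovl3 (chr19:46131897-46135694), an elongase of very long-chain fatty acids, was at 9.74 to 111 CPM (median 59.6) against 0.642 to 3.52 CPM (median 2.305) (log2 fold change 4.601), without overlap. Susd4, a regulator of complement, was at 18.05 to 65.4 CPM (median 26.7) in males and 0.719 to 5.95 CPM (median 1.42) in females (log2 fold change 3.72). Ociad2, Tmem19, Lpin2, Aatk, and Ttc39c had log2 fold changes of 1.39, 1.08, 0.95, 2.65, and 2.10.

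Cyp2c40 (chr19:39767071-39812814), a P450 that oxidizes arachidonic acid, had the smallest p of all autosomal genes. It was measured at 0.395 to 2.38 CPM (median 1.03) in males and 165 to 458 CPM (median 228) in females, a 223-fold difference (log2 fold change -7.80 ± 0.23, adjusted p = 7.92e-28, edgeR). Cyp2c69 (chr19:39842814-39886799), next to it in the same cluster, was at 0.336 to 2.95 CPM (median 1.66) in males and 716 to 2609.9 CPM (median 1234) in females (log2 fold change -9.76 ± 0.37, adjusted p = 1.56e-22). Cyp2c40 shares 35.3% of its 3′-end windows with Cyp2c67, Cyp2c68, and Cyp2c69, and Cyp2c69 shares 31.7% with Cyp2c40 and Cyp2c67, so that the division of reads among them is uncertain. Cyp2b13 (chr7:26061497-26096197), with no shared window, was at 0 to 1.38 CPM (median 0.393) in males and 54.6 to 189 CPM (median 147) in females, a pooled difference of 366-fold (95% counting interval 209 to 708).

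Sult2a1 (chr7:13796246-13837409), which sulfates bile acids and dehydroepiandrosterone, was measured at 0 to 1.18 CPM (median 0) in males and 116 to 428 CPM (median 255) in females. The pooled difference was 1619-fold (95% counting interval 694 to 4988). With 1 liver left out in turn it ran from 1415-fold (without male 9) to 3730-fold (without male 4). A1bg (chr15:60896859-60923012) encodes a plasma glycoprotein of the immunoglobulin superfamily. It was at 0 to 1.18 CPM (median 0) in males and 84.3 to 732 CPM (median 240.0) in females. Its pooled difference was 1292-fold (95% counting interval 627 to 3214), 1084-fold without female 10 and 2083-fold without male 4. Cux2 (chr5:121856366-122050102), a homeobox repressor known as a female-specific factor of mouse liver, was at 0 to 1.26 CPM (median 0.393) in males and 15.0 to 52.4 CPM (median 29.8) in females (log2 fold change -5.95 ± 0.34, adjusted p = 4.21e-18). The lowest female was above the highest male for each of the 3 genes. Sult2a3 had no count in any male and 11.5 to 145 CPM (median 60.1) in females. It was at least 687-fold higher in females when males are set at 3 counts over the group, or at least 594-fold without female 3. Cyp3a44 likewise had no count in males and 13.6 to 256 CPM (median 30.1) in females, at least 579-fold higher, or at least 361-fold without female 10, which held the highest value.

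Slc22a26 (chr19:7781041-7802667), of the organic anion transporter family, was measured at 0.837 to 6.14 CPM (median 3.16) in males and 88.6 to 148 CPM (median 111) in females (log2 fold change -5.01 ± 0.22, adjusted p = 3.69e-21). Rdh16f2, a retinol dehydrogenase family member, was at 74.2 to 151 CPM (median 115) in males and 274 to 346 CPM (median 305) in females (log2 fold change -1.38 ± 0.09). No female value of these genes fell within the male range. Hao2, a peroxisomal hydroxyacid oxidase, was at 0 to 2.39 CPM (median 1.03) in males and 10.5 to 55.0 CPM (median 35.0) in females (log2 fold change -4.76). Nt5e, the ecto-nucleotidase CD73, was at 2.04 to 22.1 CPM (median 12.24) against 41.2 to 80.2 CPM (median 69.0) (log2 fold change -2.36). St3gal6, a sialyltransferase, was at 1.18 to 7.95 CPM (median 3.59) against 12.9 to 22.9 CPM (median 19.7) (log2 fold change -2.26). Cyp2a22, Pcp4l1, and the transcript 9030619P08Rik had log2 fold changes of -3.54, -2.20, and -2.68, and their groups did not overlap either.

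**Figure D2:**
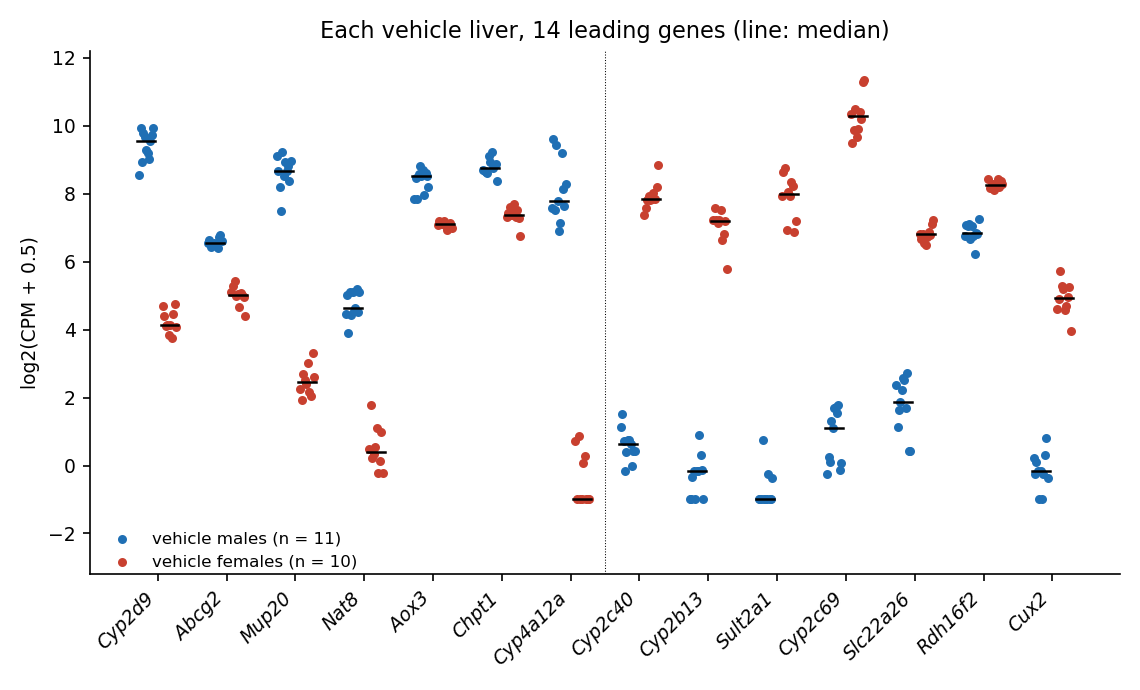
Each vehicle liver as a point, on log2(CPM + 0.5), for 7 genes with the smallest p in the male direction (left of the dotted line) and 7 in the female direction (right), with blue for the 11 males, red for the 10 females, and a black line at each group's median. In all 14 genes the points of one sex lie above all points of the other.

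The promoters of leading genes were read for the letters bound by the factors named above. RefSeq (GRCm38.p6) gave a window of 250 bases before to 50 bases after the start for 128 of the 191 genes that were 2-fold higher in males (172 windows) and 150 of the 215 that were 2-fold higher in females (185 windows). The STAT5 letters TTCNNNGAA, which read the same on both strands, were in 8.14% of the male and 8.11% of the female windows, against 6.86% of the windows of all autosomal genes tested. The HNF6 core ATTGAT, on either strand, was in 12.8% of the male and 9.19% of the female windows, against 4.53% of all. The core ATCGAT, of CUX factors, was in 0.581% and 1.08%, against 0.842%. Base composition moved with the same sets, since the median GC content was 55.2% in the male, 53.0% in the female, and 60.3% in all windows, and its part in the HNF6 shares was not tested. Each window was counted on its own, though some windows of a family are near-copies. Those of Cyp2c40, Cyp2c68, and Cyp2c69 each hold 1 HNF6 core in almost the same sequence. Those of Mup7 and Mup21 each hold 2 in similar sequence. The part of such copies in the shares was not tested. Of the 37 genes named by p or fold that had a window, 5 held the STAT5 letters (1 of 18 higher in males and 4 of 19 higher in females) and 10 held the HNF6 core (3 and 7). A match is a description of letters and not evidence of binding.

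Windows that hold such letters follow for 7 of these genes, each as the 250 bases before the start on the strand of the gene, 5′ to 3′, with the STAT5 letters (TTCNNNGAA) or the HNF6 core (ATTGAT, or ATCAAT on the other strand) in capitals. They are shown because each holds the letters in a gene that leads one direction. Positions are counted back from the start to the first letter of the match. In genes higher in females, the STAT5 letters lie at -141 in Slc22a26, -84 in A1bg, -110 in Prlr, and -188 in Esr1, and the HNF6 core at -58 in Slc22a26 and -150 in A1bg. Cyp2c69, also higher in females, has the HNF6 core at -8, Mup7, higher in males, has it at -82 and -19, and Aatk, higher in males, has the STAT5 letters at -213. Prlr, Esr1, and Aatk have other annotated starts, whose windows held neither set of letters.
Slc22a26, chr19:7802668-7802917, minus strand: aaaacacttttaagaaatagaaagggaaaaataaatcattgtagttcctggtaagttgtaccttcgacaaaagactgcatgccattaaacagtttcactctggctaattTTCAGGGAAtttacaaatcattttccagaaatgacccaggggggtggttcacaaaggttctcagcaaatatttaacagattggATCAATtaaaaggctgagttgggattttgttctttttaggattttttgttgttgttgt
A1bg, chr15:60921271-60921520, minus strand: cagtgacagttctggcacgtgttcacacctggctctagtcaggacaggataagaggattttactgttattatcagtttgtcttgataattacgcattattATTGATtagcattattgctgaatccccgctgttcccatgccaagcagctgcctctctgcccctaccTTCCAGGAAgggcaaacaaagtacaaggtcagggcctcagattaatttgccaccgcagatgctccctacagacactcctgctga
Prlr, chr15:10223656-10223905, plus strand: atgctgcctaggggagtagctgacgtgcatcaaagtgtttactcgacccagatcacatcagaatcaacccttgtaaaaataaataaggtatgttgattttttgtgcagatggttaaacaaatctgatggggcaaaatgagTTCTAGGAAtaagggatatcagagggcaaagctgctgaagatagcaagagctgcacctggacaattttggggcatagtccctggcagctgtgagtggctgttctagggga
Esr1, chr10:4709908-4710157, plus strand: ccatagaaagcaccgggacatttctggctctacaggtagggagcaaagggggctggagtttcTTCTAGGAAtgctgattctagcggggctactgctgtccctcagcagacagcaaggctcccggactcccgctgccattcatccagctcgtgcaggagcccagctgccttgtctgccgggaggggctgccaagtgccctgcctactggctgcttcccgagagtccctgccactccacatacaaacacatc
Cyp2c69, chr19:39886770-39887019, minus strand: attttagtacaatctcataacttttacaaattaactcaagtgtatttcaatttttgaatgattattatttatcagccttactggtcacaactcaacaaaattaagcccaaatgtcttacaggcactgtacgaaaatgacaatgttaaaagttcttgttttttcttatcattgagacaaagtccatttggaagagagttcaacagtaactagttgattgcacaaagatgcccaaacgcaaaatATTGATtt
Mup7, chr4:60070476-60070725, minus strand: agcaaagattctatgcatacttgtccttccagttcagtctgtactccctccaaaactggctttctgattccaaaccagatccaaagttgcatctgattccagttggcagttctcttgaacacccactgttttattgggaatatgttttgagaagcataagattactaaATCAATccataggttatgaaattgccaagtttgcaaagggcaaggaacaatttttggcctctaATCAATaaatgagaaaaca
Aatk, chr11:120017155-120017404, minus strand: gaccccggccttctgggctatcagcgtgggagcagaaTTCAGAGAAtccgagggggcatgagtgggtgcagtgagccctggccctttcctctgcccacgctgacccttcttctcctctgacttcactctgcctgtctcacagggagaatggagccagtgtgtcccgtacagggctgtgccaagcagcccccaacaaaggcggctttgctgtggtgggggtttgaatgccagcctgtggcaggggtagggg

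Cytochrome P450 genes were called in both directions. Over all autosomal genes tested, 14.2% were called (7.2% higher in males, 7.01% in females), the share to set beside each family and list below. Of 33 Cyp2 genes tested, 9 were higher in males and 13 in females (66.7% called). Cyp2c genes on chromosome 19 went both ways within 1 cluster (chr19:39007019-44029208), with 3 of 13 higher in males (Cyp2c50, Cyp2c54, Cyp2c67) and 7 higher in females. Cyp2c54 was measured at 50.7 to 461 CPM (median 355) in males and 42.4 to 211 CPM (median 85.9) in females (log2 fold change 1.63), with overlap, whereas Cyp2c37 was at 182 to 552 CPM (median 454) in males and 690.5 to 1017 CPM (median 802) in females (log2 fold change -0.98), without overlap. The Cyp2a, Cyp2b, and Cyp2g genes of chromosome 7 (chr7:25897620-27037375) had 6 of 8 members higher in females and none in males. Cyp2a4, a testosterone 15-alpha-hydroxylase, was at 0 to 13.8 CPM (median 1.18) in males and 176 to 325 CPM (median 222) in females (log2 fold change -6.12 ± 0.38). Cyp2b9 was at 4.09 to 85.6 CPM (median 39.3) in males and 244 to 347 CPM (median 282) in females (log2 fold change -2.99 ± 0.41). Both were separate between the sexes, and both had wide male ranges.

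Cyp3a genes on chromosome 5 had 5 of 8 members higher in females and none in males. Cyp3a16 had no count in males and 3.81 to 13.9 CPM (median 10.1) in females, at least 108-fold higher (94.7-fold without male 9). Cyp3a11, the main drug-metabolizing member, overlapped between the sexes. It was at 245 to 931 CPM in males and 411 to 1375 CPM in females (adjusted p = 0.25, edgeR). Of 5 Cyp2d genes 2 were higher in males (Cyp2d9 and Cyp2d22) and none in females. Cyp2d9 shares 11.9% of its 3′-end windows with 6 other genes, Cyp2d22 among them. Of 12 Cyp4 genes 3 were higher in males (Cyp4a12a, Cyp4a12b, Cyp4v3) and 1 in females (Cyp4b1). Cyp2f2, a periportal P450, was at 651 to 922 CPM (median 769) in males and 346 to 576 CPM (median 487) in females (log2 fold change 0.68 ± 0.09). Cyp2e1, the pericentral P450 that oxidizes ethanol, was at 1689 to 3927 CPM (median 3169) in males and 1506 to 2544 CPM (median 1901) in females (log2 fold change 0.58 ± 0.13), with overlap.

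Sulfotransferases, which attach sulfate to steroids, bile acids, and phenols, were largely higher in females: 9 of 14 members tested were higher in females and 2 in males, with a median log2 fold change of -1.85, which was the same with the 4 members that had no count in males set at their bound. All autosomal genes tested had a median of -0.01 and 7.01% called in that direction. The Sult2a cluster (chr7:13623967-14494230) had 5 of 6 members higher in females, but Sult2a8, a bile acid sulfotransferase, was at 62.8 to 452 CPM (median 309) in males and 72.7 to 147 CPM (median 113) in females (log2 fold change 1.31 ± 0.20). Sult2a2 had no count in males and was at 6.75 to 48.4 CPM (median 16.0) in females, at least 194-fold higher (159-fold without female 3). It shares 42.6% of its 3′-end windows with other genes. Sult3a1 was at 0 to 0.837 CPM (median 0) in males and 8.62 to 87.2 CPM (median 23.9) in females, a pooled difference of 231-fold (95% counting interval 98.5 to 712). Sult1c2 and Sult1b1 were smaller, with log2 fold changes of -1.33 and 0.40.

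UDP-glucuronosyltransferases, which attach glucuronic acid, had 5 of 12 members higher in males and none in females (41.7% called, median log2 fold change 0.23). The 4 Ugt2b members among them, Ugt2b35, Ugt2b36, Ugt2b1, and Ugt2b5, lie in 1 cluster on chromosome 5 and had log2 fold changes of 0.58, 0.49, 0.89, and 0.69. None of the 5 reached 2-fold. Ugt2b1 showed the largest difference of the 4, at 117 to 412 CPM (median 287) in males and 98.5 to 179.8 CPM (median 145) in females, with overlap.

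Glutathione S-transferases were split evenly, with 5 of 20 higher in each sex and a median of -0.03. Mgst1, the microsomal member, was at 4863 to 7443 CPM (median 5901) in males and 2988 to 4223 CPM (median 3605) in females (log2 fold change 0.71 ± 0.08), without overlap. Gstp1 was at 1.97 to 12.6 CPM (median 5.51) in males and 0 to 3.65 CPM (median 1.13) in females (log2 fold change 2.29 ± 0.34), and it shares 37.6% of its 3′-end windows with Gstp2 and a pseudogene. Gsta3 was at 1023 to 1736 CPM (median 1438) against 856 to 1248 CPM (median 998) (log2 fold change 0.50). Flavin monooxygenases were all called, 1 of 5 higher in males and 4 in females (median -0.81). Fmo5 was the male one, at 422 to 648 CPM (median 504) in males and 184 to 422 CPM (median 260.3) in females (log2 fold change 0.88 ± 0.10). Fmo2 and Fmo4 had log2 fold changes of -1.47 and -0.81.

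Enzymes of aldehyde and alcohol oxidation had 8 of 19 members higher in males and 3 in females (median log2 fold change 0.28). Aldh1a1, which makes retinoic acid, was at 1323 to 1807 CPM (median 1472) in males and 382 to 892 CPM (median 746) in females (log2 fold change 1.08 ± 0.11). Adh4, an alcohol dehydrogenase, was at 42.5 to 80.4 CPM (median 53.4) against 20.9 to 36.2 CPM (median 27.3) (log2 fold change 1.101 ± 0.12). Hao1, the peroxisomal glycolate oxidase, was at 304 to 501 CPM (median 415) against 240.0 to 288 CPM (median 259.8) (log2 fold change 0.66 ± 0.08). Every male was above every female in these 3 genes, the opposite of Hao2.

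Major urinary proteins, lipocalins that carry pheromones into urine, were called in 1 direction only: 14 of 19 members of the list of major urinary proteins and lipocalins were higher in males, all 14 by 2-fold or more, and none in females, with a median log2 fold change of 1.70. All 14 lie among the 18 Mup genes tested in the cluster on chromosome 4 (chr4:59964294-62150863). Mup7 was measured at 10.7 to 509.6 CPM (median 181) in males and 0 to 1.17 CPM (median 0) in females, a pooled difference of 784-fold (95% counting interval 397 to 1816), and the smallest and largest values when 1 liver was left out were 661.5-fold without male 2 and 1397-fold without female 9. Mup21 was at 37.6 to 106 CPM (median 69.1) in males and 1.82 to 6.30 CPM (median 3.74) in females (log2 fold change 4.15 ± 0.26). Mup3 was at 2062 to 7688 CPM (median 5838) in males and 1083 to 2458 CPM (median 1573) in females (log2 fold change 1.68 ± 0.20), with overlap. Mup11 was at 169 to 8641 CPM (median 1719) against 7.78 to 74.2 CPM (median 19.4), and Mup12 at 43.0 to 1059 CPM (median 384) against 5.39 to 15.0 CPM (median 12.25). Members of the cluster are near-copies. Mup2 shares all of its 3′-end windows with others, Mup10 98.6%, Mup12 84.0%, Mup7 83.2%, and Mup11 63.6%, so their separate levels are uncertain, whereas Mup20 (12.5%), Mup21, and Mup3 (none for both) are distinct.

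Organic anion and cation transporters had 4 of 20 members higher in males and 5 in females (45% called, median -0.04). Slco1a1, an uptake carrier for steroid conjugates, was at 27.2 to 575 CPM (median 351) in males and 0 to 53.9 CPM (median 0.999) in females (log2 fold change 5.50 ± 0.65), and 7.55 without female 10, whose 53.9 CPM lay in the male range while the next female was at 6.16 CPM. Its cluster neighbour Slco1a4 went the other way, at 47.6 to 105 CPM (median 72.2) in males and 119.6 to 235 CPM (median 207) in females (log2 fold change -1.40 ± 0.16), without overlap. Slco1b2, the main hepatic uptake carrier of bilirubin and drugs, was at 4060.0 to 6993 CPM (median 5875) against 4175 to 5072 CPM (median 4782) (log2 fold change 0.32). Slc22a27 was higher in females (log2 fold change -2.66). It was at 0.341 to 18.6 CPM (median 6.72) in males and 36.7 to 81.5 CPM (median 50.02) in females. Slc22a28, beside it on chromosome 19, was higher in males (0.672 to 10.6 CPM, median 6.78, against 0 to 0.35 CPM, median 0). The pooled difference of Slc22a28 was 98.9-fold (95% counting interval 27.04 to 822), 85.05-fold without female 1 and 179.9-fold without female 10. Slc22a28 shares 32.4% of its 3′-end windows with Slc22a30. Slc10a2, the sodium-dependent bile acid carrier, was at 17.4 to 71.7 CPM (median 47.4) in males and 7.55 to 22.5 CPM (median 11.4) in females (log2 fold change 1.88).

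Among ABC transporters 2 of 25 members were higher in males and 7 in females (36% called, against 14.2% of all autosomal genes, median -0.05). Beside Abcg2, described above, Abcc2 was the male one. Abcd2, which imports very long-chain fatty acids into peroxisomes, was at 10.6 to 42.8 CPM (median 28.6) in males and 35.0 to 112 CPM (median 89.6) in females (log2 fold change -1.62 ± 0.20). Abcb1a, which encodes a P-glycoprotein drug pump, was at 3.36 to 19.3 CPM (median 5.92) against 8.75 to 22.3 CPM (median 16.1) (log2 fold change -1.20 ± 0.22), and shares 21.2% of its 3′-end windows with Abcb1b. Abcc4 and Abca3 had log2 fold changes of -1.07 and -0.85.

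Bile acid synthesis and conjugation had 9 of 17 members higher in males and 1, Cyp2c70, in females (median log2 fold change 0.39). Cyp7b1, which hydroxylates oxysterols and dehydroepiandrosterone, was at 37.6 to 253 CPM (median 99.1) in males and 12.9 to 32.2 CPM (median 19.3) in females (log2 fold change 2.45 ± 0.30), without overlap. Cyp8b1, which sets the share of cholic acid, was at 112 to 278 CPM (median 193) in males and 62.0 to 158 CPM (median 109) in females (log2 fold change 0.79 ± 0.13). Baat, which conjugates bile acids to taurine, was at 140.3 to 266 CPM (median 189.5) against 107 to 179.9 CPM (median 116) (log2 fold change 0.62 ± 0.10). The last 2 genes overlapped between the sexes. Cyp7a1, the rate-limiting enzyme of the classic pathway, did not pass the test (105 to 196 CPM in males, 55.3 to 291 CPM in females, adjusted p = 0.617, edgeR).

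Steroid metabolism had 5 of 15 members higher in males and 2 in females (46.7% called, median 0.23). Cyp17a1, which makes 17-hydroxysteroids and androgen precursors, was at 9.94 to 33.8 CPM (median 21.6) in males and 87.9 to 146 CPM (median 103) in females (log2 fold change -2.29 ± 0.25), without overlap. Hsd17b6, an androgen-oxidizing dehydrogenase, was at 95.03 to 345 CPM (median 246) against 359 to 491 CPM (median 436) (log2 fold change -0.94 ± 0.17), also without overlap. Hsd3b5, a 3-ketosteroid reductase, was at 0 to 140.3 CPM (median 31.5) in males and 0 to 2.10 CPM (median 0) in females (log2 fold change 7.49 ± 1.17, adjusted p = 9.30e-06 by edgeR, log2 fold change 9.28 without female 10, and adjusted p = 0.166 by limma-voom). Its male livers ran from none to the highest value of the gene. The pooled difference of Hsd3b5 was 220-fold (95% counting interval 106.5 to 548), 169-fold without male 11 and 1399-fold without female 10. Hsd3b2, in the same cluster, was at 2.69 to 12.8 CPM (median 10.4) against 1.08 to 5.45 CPM (median 3.86) (log2 fold change 1.33). Srd5a1, the 5-alpha-reductase, was at 18.05 to 51.4 CPM (median 43.0) in males and 15.9 to 40.6 CPM (median 18.2) in females (log2 fold change 0.93), and Akr1c6, a 17-beta-hydroxysteroid dehydrogenase, at 981 to 1751 CPM (median 1617) against 936 to 1274 CPM (median 1134) (log2 fold change 0.40).

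In growth hormone and STAT5 signalling, 3 of 24 members were higher in males and 5 in females (33.3% called, median -0.11). The share over all autosomal genes tested was 14.2%. The receptor Ghr was at 247 to 502 CPM (median 431) in males and 269 to 381 CPM (median 342) in females (log2 fold change 0.29 ± 0.08, adjusted p = 0.00874, edgeR), a call that was lost with library totals in place of TMM (adjusted p = 0.101). Stat5b overlapped between the sexes (30.3 to 63.0 CPM in males, 39.4 to 71.0 CPM in females, adjusted p = 0.409). Prlr (chr15:10177238-10349180), the receptor of prolactin and a relative of Ghr, was at 88.9 to 178 CPM (median 133) in males and 322 to 512 CPM (median 362) in females (log2 fold change -1.46 ± 0.11, adjusted p = 1.04e-14), without overlap. The factors Trim24 and Tox, with Cux2 the female-biased regulators of the list, had log2 fold changes of -1.11 and -0.69. Onecut1 was at 3.35 to 24.9 CPM (median 7.11) in males and 1.76 to 7.70 CPM (median 3.81) in females (log2 fold change 1.49), with 51.1% of its 3′-end windows shared with an overlapping transcript.

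Of the targets of growth hormone, Egfr, the epidermal growth factor receptor, was at 125 to 527 CPM (median 308) in males and 59.4 to 482 CPM (median 84.5) in females (log2 fold change 1.39 ± 0.35). Without female 10, which was at 482 CPM when the next female was at 100.4 CPM, the log2 fold change was 1.98. Igfals, which stabilizes circulating IGF1, was at 42.3 to 141 CPM (median 101) against 109 to 245 CPM (median 142) (log2 fold change -0.62). Igf1 itself was at 604 to 785 CPM (median 655) in males and 649 to 966 CPM (median 778) in females (log2 fold change -0.18 ± 0.08, adjusted p = 0.0997, edgeR), and was called higher in females with library totals in place of TMM (adjusted p = 0.00223) and with a filter at a mean of 5 CPM (adjusted p = 0.0434). The feedback inhibitors Socs2 and Cish were not called (adjusted p = 0.253 and 0.442), nor was Igfbp1 (adjusted p = 0.774). Their female ranges of 64.2 to 377, 6.67 to 42.3, and 21.2 to 243 CPM ended in each case in female 10.

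Among steroid and nuclear receptors 3 of 22 members were higher in males and 5 in females (36.4% called against 14.2% of all, median -0.09). Esr1 (chr10:4611593-5005614), estrogen receptor alpha, was at 4.43 to 12.8 CPM (median 8.99) in males and 20.9 to 38.1 CPM (median 30.1) in females (log2 fold change -1.72 ± 0.15, adjusted p = 5.40e-14, edgeR), without overlap. Nr1i3, the constitutive androstane receptor, was at 64.6 to 137 CPM (median 97.6) against 67.9 to 172 CPM (median 142) (log2 fold change -0.39 ± 0.12, adjusted p = 0.0188, and 0.0561 in a fit of the vehicle livers alone). Rxrg and Nr5a2 had log2 fold changes of -0.85 and -0.25. In the male direction were Nr1h4, the bile acid receptor FXR, at 101 to 146 CPM (median 119.9) against 74.0 to 112 CPM (median 93.0) (log2 fold change 0.37), and its target Nr0b2 (SHP) at 10.0 to 27.7 CPM (median 21.2) against 8.29 to 17.7 CPM (median 10.7) (log2 fold change 0.72). Pparg, the adipogenic receptor, was at 1.36 to 11.96 CPM (median 4.91) in males and 0.68 to 4.64 CPM (median 1.81) in females (log2 fold change 1.35 ± 0.34), at low levels and with overlap. Under other tests, scalings and fits, 3 members of this list were called higher in males and 3 to 8 in females.

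De novo lipogenesis and the making of long-chain and complex lipids had 3 of 28 members higher in males and 5 in females (median -0.05). The share called was 28.6%, against 14.2% of all autosomal genes tested. Under other tests, scalings and fits, 3 to 4 members were called higher in males and 4 to 9 in females. In the male direction of the main fit were Elovl3, described above, and the phosphatidate phosphatases Lpin1 and Lpin2. Lpin1 was at 159.9 to 1482 CPM (median 689.8) in males and 112 to 561 CPM (median 231) in females (log2 fold change 1.52 ± 0.36), with wide overlap. In the female direction, Elovl2, an elongase of polyunsaturated fatty acids, was at 429 to 746 CPM (median 611) in males and 668 to 937 CPM (median 784) in females (log2 fold change -0.42), and Fads1, the delta-5 desaturase, was at 262 to 790.4 CPM (median 484) against 612 to 839.7 CPM (median 686) (log2 fold change -0.50). Acacb, the acetyl-CoA carboxylase that restrains fatty acid oxidation, was at 2.38 to 31.7 CPM (median 8.35) against 19.5 to 32.5 CPM (median 23.7) (log2 fold change -0.97 ± 0.31, adjusted p = 0.0264, and 0.0587 in a fit of the vehicle livers alone). Pnpla3, a lipid droplet lipase, was at 0 to 3.16 CPM (median 0) in males and 0.994 to 6.47 CPM (median 2.25) in females. Pooled, it was 7.18-fold higher in females (95% counting interval 3.90 to 14.4), 6.19-fold without female 7 and 19.9-fold without male 4.

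Fatty acid uptake and lipid droplet genes had 6 of 27 members higher in males and 3 in females (33.3% called, median 0.04). Cidec, which fuses lipid droplets, was at 1.66 to 46.3 CPM (median 9.87) in males and 0 to 3.28 CPM (median 1.47) in females (log2 fold change 3.23 ± 0.62). Plin4, a droplet coat protein, was at 5.53 to 43.3 CPM (median 10.6) against 0.321 to 7.30 CPM (median 2.84) (log2 fold change 2.14 ± 0.39). Both overlapped between the sexes and spread widely in males. Vldlr, which takes up triglyceride-rich lipoproteins, was at 2.90 to 12.8 CPM (median 7.11) in males and 9.45 to 39.4 CPM (median 26.4) in females (log2 fold change -1.80 ± 0.22), and Lipc, hepatic lipase, was at 12.8 to 58.2 CPM (median 45.04) against 52.3 to 66.8 CPM (median 59.2) (log2 fold change -0.50). Cidec is also a marker of adipocytes, of which 4 of 8 were tested and 3 (Cfd, Car3, and Cidec) were higher in males. Their summed level was 2273 to 4225 CPM in males and 1258 to 2355.8 CPM in females, nearly all of it Car3, which hepatocytes make too, while the defining markers Adipoq, Plin1, Lep, and Retn were below a mean of 0.5 CPM and not tested. The part of adipocytes in these differences was not tested.

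Fatty acid oxidation and ketogenesis had 6 of 31 members higher in males and 2 in females (25.8% called against 14.2% of all, median 0.06). The male ones were all under 2-fold, such as Acsl1, which activates long-chain fatty acids with coenzyme A, at 618 to 1552 CPM (median 1162) in males and 709 to 1047 CPM (median 877) in females (log2 fold change 0.40 ± 0.10), with overlap. The female ones were the neighbouring acyl-CoA thioesterases Acot3, at 2.81 to 52.0 CPM (median 17.99) against 18.9 to 293 CPM (median 199) (log2 fold change -3.08 ± 0.40), and Acot4, at 62.7 to 184 CPM (median 129) against 88.5 to 393 CPM (median 282) (log2 fold change -1.13 ± 0.21). Female 10 was the lowest female in Acot3, at 18.9 CPM, and the next lowest was at 101.7 CPM. Under other tests, scalings and fits, 3 to 6 members of this list were called higher in males and 2 to 5 in females.

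Cholesterol synthesis and uptake had 2 of 21 autosomal members higher in males and 1 in females, against 14.2% of all genes called, with a median of 0.34. Msmo1 was at 193 to 754 CPM (median 591) in males and 147 to 392 CPM (median 288) in females (log2 fold change 0.88), and Fdps at 3.41 to 31.7 CPM (median 16.3) against 3.65 to 13.3 CPM (median 9.15) (log2 fold change 1.004, adjusted p = 0.0118, edgeR, and 0.0565 in a fit of the vehicle livers alone). Apolipoproteins and lipoprotein assembly had 3 of 20 members higher in each sex (30% called, median 0.03). Apob, the structural protein of VLDL, was at 889.9 to 1302 CPM (median 1048) in males and 623 to 903 CPM (median 806) in females (log2 fold change 0.41 ± 0.07). Angptl4, an inhibitor of lipoprotein lipase, and Apom, which carries sphingosine 1-phosphate on HDL, had log2 fold changes of 0.57 and -0.55. Glucose and glycogen metabolism was near the background, with 1 of 25 members higher in males and 2 in females (12% called, median 0.02). Among them were Gckr and Irs1, with log2 fold changes of -0.32 and -0.49.

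Of the FGF21 axis, none of 11 members tested was higher in males and 2 were higher in females (median -0.22). That is 18.2% called, against 14.2% of all autosomal genes tested. Klb, the coreceptor beta-klotho, was at 3.36 to 10.0 CPM (median 8.44) in males and 7.88 to 14.4 CPM (median 11.7) in females (log2 fold change -0.57 ± 0.16, adjusted p = 0.0076, edgeR). Fgf21 itself was at 0.281 to 13.4 CPM (median 3.44) in males and 1.46 to 6.28 CPM (median 3.38) in females and did not pass the test (log2 fold change 0.40 ± 0.45, adjusted p = 0.636, with the opposite sign by limma-voom, -0.13).

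Serine protease inhibitors had 6 of 23 members higher in males and 3 in females (39.1% called, median 0.04). Serpina1e, an alpha-1-antitrypsin family member, was at 89.01 to 5060.3 CPM (median 881) in males and 6.93 to 91.7 CPM (median 22.5) in females (log2 fold change 5.47 ± 0.75). Serpina3k was at 3333 to 14178 CPM (median 7036) against 1693 to 6248 CPM (median 3502) (log2 fold change 1.03), and Serpine2 at 6.21 to 32.7 CPM (median 15.9) against 1.82 to 9.45 CPM (median 3.81) (log2 fold change 1.79). These 3 genes overlapped between the sexes. Serpinb1a, an elastase inhibitor, was at 2.35 to 16.3 CPM (median 11.0) in males and 22.3 to 36.4 CPM (median 27.6) in females (log2 fold change -1.42), without overlap, and Serpina6, which carries corticosteroids in plasma, was at 73.9 to 225 CPM (median 139) against 190.0 to 403 CPM (median 255) (log2 fold change -0.97).

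Complement was called in both directions, with 7 of 26 members higher in males and 5 in females (46.2% called, median 0.07). In the male direction were the terminal components C6, C8a, C8b, and C9, the early components C1s1 and C4a, and Cfd. C6 (chr15:4727175-4814967) was at 49.5 to 177 CPM (median 91.3) in males and 8.16 to 17.6 CPM (median 13.7) in females (log2 fold change 2.89 ± 0.22, adjusted p = 7.07e-13, edgeR), and C8a at 274 to 533 CPM (median 393) against 46.1 to 143 CPM (median 79.1) (log2 fold change 2.16 ± 0.20, adjusted p = 1.31e-10), both without overlap. C8b and C9 had log2 fold changes of 1.44 and 1.03. C4a was at 6.29 to 14.8 CPM (median 7.86) in males and 1.63 to 4.08 CPM (median 3.11) in females (log2 fold change 1.56). Cfd is factor D of the alternative pathway and also the adipocyte product adipsin. It was at 8.84 to 74.1 CPM (median 28.8) in males and 0 to 0.906 CPM (median 0) in females. Its pooled difference was 198-fold (95% counting interval 84.7 to 612), 173-fold without female 4 and 852.2-fold without female 1. In the female direction were Mbl2, a mannose-binding lectin, at 493 to 721 CPM (median 671) in males and 1041 to 1269 CPM (median 1097) in females (log2 fold change -0.76 ± 0.07, adjusted p = 3.48e-14), C3, and the C1q chains. C1qa was at 14.5 to 36.3 CPM (median 26.2) against 30.8 to 68.3 CPM (median 44.99) (log2 fold change -0.90) and C1qb at 8.59 to 25.3 CPM (median 15.1) against 22.6 to 43.7 CPM (median 27.5) (log2 fold change -0.94). C1q is made by macrophages, and its chains are counted among the Kupffer cell markers given below.

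Coagulation factors were near the background, with 1 of 20 members higher in males and 2 in females (median -0.01). That is 15% called, against 14.2% of all autosomal genes tested. With library totals in place of TMM, 8 were higher in females. F7 was at 31.0 to 64.9 CPM (median 53.6) in males and 64.6 to 102 CPM (median 75.8) in females (log2 fold change -0.68 ± 0.10), F10 had a log2 fold change of -0.30, and Hrg, in the male direction, of 0.41. Acute phase and iron genes had 3 of 25 members higher in males and 5 in females (32% called, median -0.10). Hamp2 (chr7:30922372-30924681), a hepcidin gene, was at 8.52 to 74.2 CPM (median 33.8) in males and 181 to 700.0 CPM (median 512) in females (log2 fold change -3.66 ± 0.34, adjusted p = 1.64e-10, edgeR), without overlap. Saa4 was at 170.1 to 459 CPM (median 271) against 145 to 291 CPM (median 169) (log2 fold change 0.62), whereas Saa1, a major acute phase protein, was not called (adjusted p = 0.233) and ranged from 326 to 8777 CPM in males, with its top value in male 1.

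Genes of MHC and interferon response were in the female direction, with 15 of 27 members higher in females and none in males (median log2 fold change -0.48). Gbp3, an interferon-induced GTPase, was at 4.38 to 9.66 CPM (median 5.82) in males and 8.28 to 25.6 CPM (median 16.0) in females (log2 fold change -1.36 ± 0.18). Irf1, a transcription factor of the interferon response, was at 37.1 to 76.8 CPM (median 59.9) in males and 80.1 to 124 CPM (median 103) in females (log2 fold change -0.75 ± 0.13), without overlap. Ifit3 and Ifi44 had log2 fold changes of -1.01 and -1.18. The class II genes H2-Aa and H2-Eb1, which antigen-presenting cells use, had log2 fold changes of -0.86 and -0.88, and reached 50.7 and 44.9 CPM in females.

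Kupffer cell and macrophage markers moved in the same direction, with 8 of 10 markers tested higher in females and none in males (median -0.93). Their summed level was 113 to 231 CPM in males and 226 to 461 CPM in females. Clec4f, specific to Kupffer cells in mouse liver, was at 7.57 to 16.7 CPM (median 11.4) in males and 18.1 to 46.7 CPM (median 24.7) in females (log2 fold change -1.19 ± 0.15, adjusted p = 2.49e-08, edgeR). Adgre1, the macrophage antigen F4/80, was at 3.37 to 10.9 CPM (median 6.90) in males and 11.7 to 23.1 CPM (median 16.9) in females (log2 fold change -1.37 ± 0.18, adjusted p = 3.93e-08). Neither overlapped between the sexes. Cd5l, Csf1r, and C1qa had log2 fold changes of -0.92, -1.06, and -0.90. The part of macrophage number in the MHC, interferon, and C1q differences was not tested.

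Among markers of other cells, sinusoidal endothelial markers had 3 of 10 members higher in females and none in males (summed 312 to 445 CPM in males, 459 to 548 CPM in females), with Kdr, the VEGF receptor, at 142 to 231 CPM (median 169.7) in males and 229 to 285 CPM (median 248.8) in females (log2 fold change -0.49). Stellate cell and fibroblast markers had 4 of 12 higher in females and none in males (summed 308 to 559 CPM against 455 to 589.6 CPM), such as Ecm1, Reln, and Dcn, with log2 fold changes of -0.64, -0.40, and -0.30. Extracellular matrix and fibrosis genes, read beside them, had 3 of 25 higher in females and none in males (median -0.23), with Col14a1 and Mmp14 at log2 fold changes of -0.40 and -0.42. That is 12% called, against 14.2% of all autosomal genes tested. T, NK, and B cell markers and neutrophil and monocyte markers had 4 members each above the limit and none called, and red blood cell markers had none of 4 autosomal members called. Cholangiocyte markers had 1 of 4 in each direction, with Sox9 at a log2 fold change of 0.52. One acinar cell marker of 6, Cela1, was tested and was higher in males.

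Zonal hepatocyte markers did not move as a block. Periportal markers had 2 of 10 members higher in males and 4 in females (60% called), and pericentral markers had 1 and 2 of 10 (30%). Ctsc, of the periportal list, was at 55.6 to 112 CPM (median 75.9) in males and 108 to 209.6 CPM (median 147) in females (log2 fold change -0.88). General hepatocyte markers had 4 of 10 higher in males and 1 in females, at summed levels of 56851 to 76424 CPM in males and 59270.2 to 74491 CPM in females.

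Circadian clock genes had 3 of 18 members higher in males and none in females (median -0.04). That is 16.7% called, near the 14.2% of all autosomal genes tested. With 1 vehicle liver left out in turn, 1 to 3 members were higher in males and 0 to 1 in females. Among those called was Bhlhe41, a repressor of the clock, at 2.35 to 9.48 CPM (median 5.51) in males and 0.719 to 4.82 CPM (median 2.11) in females (log2 fold change 1.26). Methionine, amino acid, and urea metabolism had 5 of 31 higher in males and 4 in females (median 0.01). Tdo2, the first enzyme of tryptophan breakdown, was at 1109 to 3298 CPM (median 2938) in males and 907 to 1859 CPM (median 1480.0) in females (log2 fold change 0.86 ± 0.15), and Kmo, further along that pathway, had a log2 fold change of 0.40. Bhmt, which returns homocysteine to methionine, was at 556 to 1461 CPM (median 1149) against 485 to 759 CPM (median 684) (log2 fold change 0.77). Agxt, the glyoxylate aminotransferase, was at 53.4 to 125 CPM (median 92.8) in males and 123 to 196 CPM (median 154) in females (log2 fold change -0.75). Cell cycle genes had 1 of 21 called (4.76%, below the share of all autosomal genes). It was Ccnd1 (cyclin D1), at 19.4 to 158 CPM (median 47.4) in males and 94.5 to 225 CPM (median 147) in females (log2 fold change -1.48 ± 0.25).

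**Figure D3:**
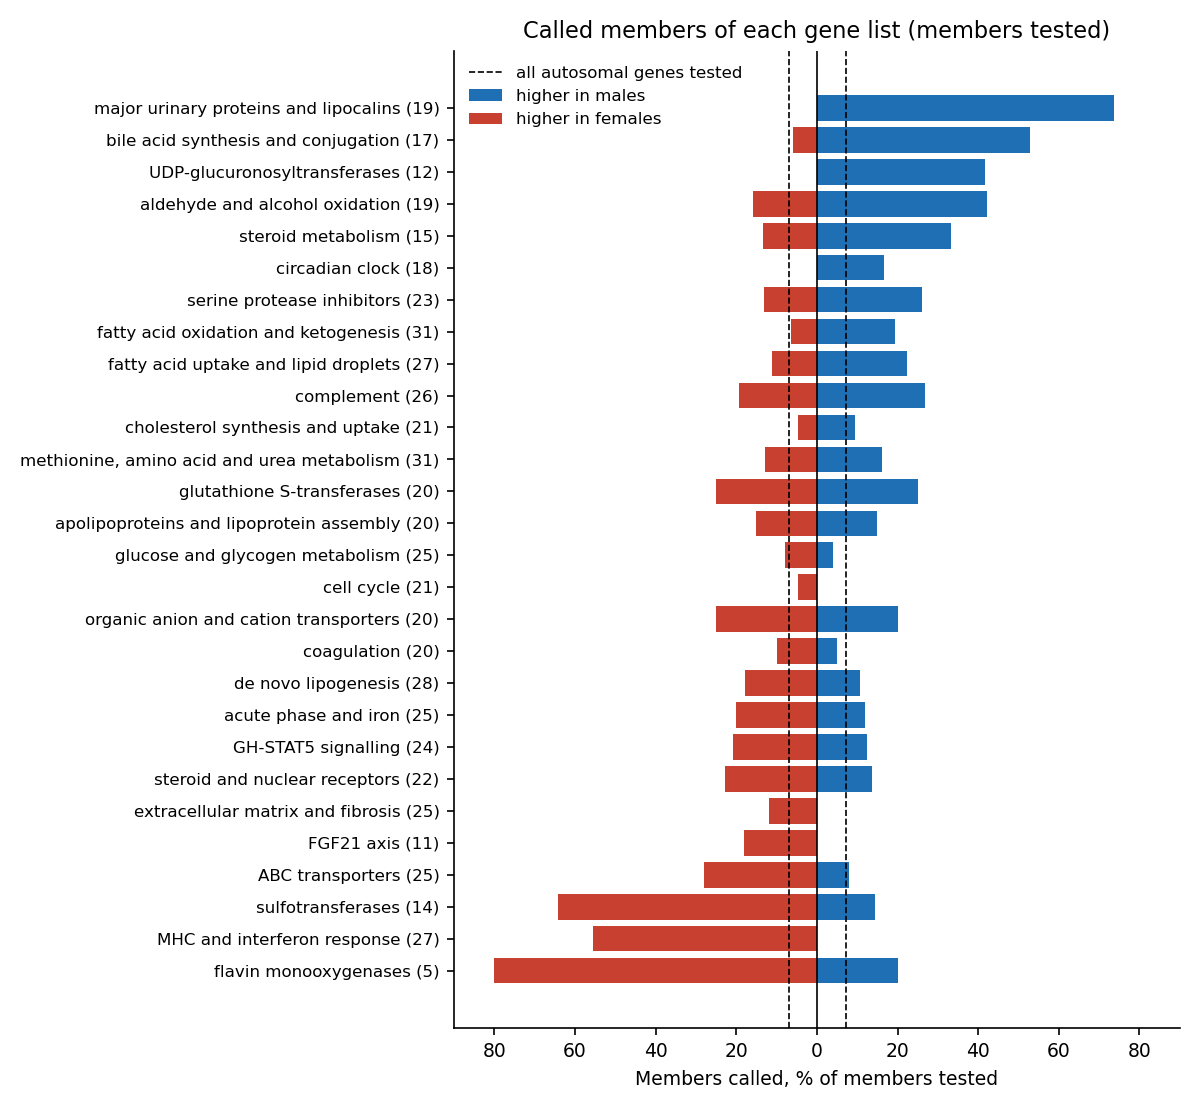
Share of the members tested in each gene list that were called higher in vehicle males (blue, to the right) or vehicle females (red, to the left), in percent, with the number tested in parentheses and dashed lines at the shares over all autosomal genes tested (7.2% and 7.01%). Major urinary proteins lie at the male end, and flavin monooxygenases, MHC and interferon genes, and sulfotransferases at the female end.

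The spread between mice was larger in males for more genes than in females. Over 6372 autosomal genes with a mean of at least 10 CPM, the median SD of log2 CPM was 0.264 in males and 0.238 in females, and the SD was larger in males for 4032 genes and in females for 2340. To place each liver on the male-to-female scale with genes not chosen on these livers, 64 male-high and 60 female-high genes were taken from the FGF21-treated livers (4-fold or more, adjusted p under 0.05) and their log2 CPM was averaged in each vehicle liver. The male-high mean was 3.54 to 4.54 in males and 0.844 to 1.31 in females, and the female-high mean was -0.318 to 0.620 in males and 3.10 to 3.54 in females, with a wide gap between the sexes on both. Male 1, male 8, and male 3 had the lowest male-high means of the males (3.54, 3.60, and 3.64), and the same 3 had the highest female-high means (0.324, 0.620, and 0.378).

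**Figure D4:**
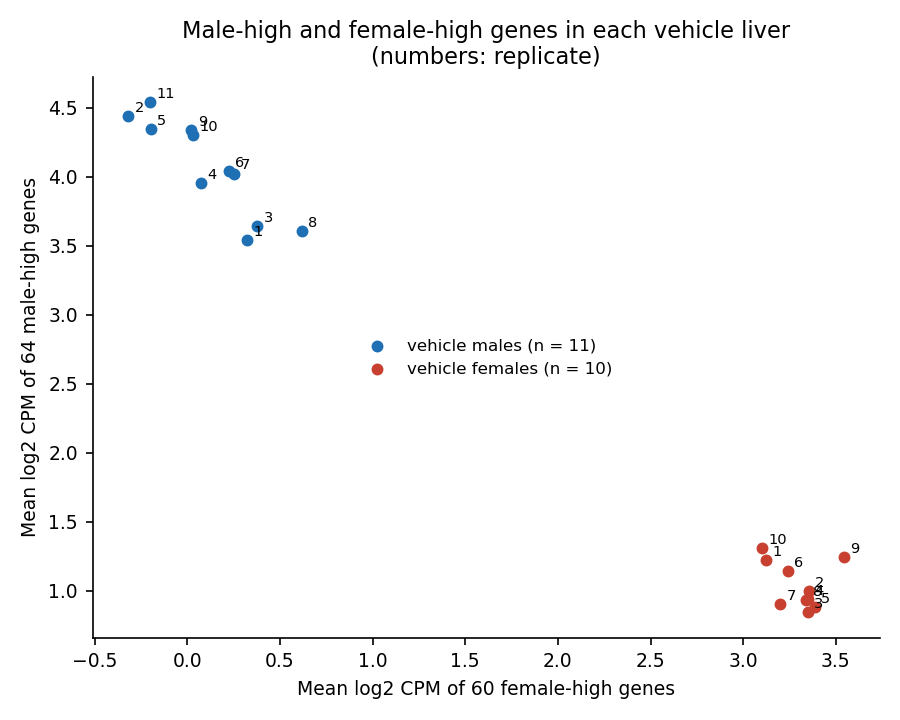
Mean log2 CPM of 64 male-high genes (vertical axis) against that of 60 female-high genes (horizontal axis) in each vehicle liver, numbered by replicate, with males in blue and females in red. The sexes lie apart on both axes, and males 3, 8, and 1 are the males nearest to the females.

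The following genes were chosen for these livers after their values were seen, and the livers are described one by one. Mup7 was at 10.7 CPM in male 1, 13.7 in male 3, and 12.1 in male 8, and at 101 CPM or more in the other 8 males. Hsd3b5 had no count in male 1 and was at 0.291 CPM in male 3 and 0.345 CPM in male 8, against at least 18.7 CPM in the others. Slco1a1 was at 27.2, 54.1, and 64.2 CPM in males 1, 3, and 8, and at least 207 CPM in the others, and Elovl3 was at 9.74, 29.7, and 32.4 CPM, against at least 40.5 CPM. These male-high genes were lowest in the same 3 livers. Cyp2b9, a female-high gene, was at 58.1, 85.6, and 66.6 CPM in them, at most 46.2 CPM in the other males, and at least 244 CPM in females. Cidec was at 46.3, 24.4, and 26.9 CPM in males 1, 3, and 8, and at most 13.2 CPM in the others. Other male-high genes were not low in these livers: Mup20 was at 550.0, 292, and 409 CPM, and Cyp4a12a at 189, 183, and 581 CPM, within the range of the other males. Male 1 also had Saa1 at 8777 CPM, against at most 2186 CPM in the other males, and Lcn2, a lipocalin of the acute phase, at 119 CPM against at most 11.9 CPM.

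In female 10, the following genes, also chosen after their values were seen, lay far from the other 9 females. Egfr was at 482 CPM (next female 100.4), Socs2 at 377 CPM (next 164), Cish at 42.3 CPM (next 13.1), and Igfbp1 at 243 CPM (next 51.0). Cyp3a44 was at 256 CPM (next 62.5), Slco1a1 at 53.9 CPM (next 6.16), and Srd5a1 at 40.6 CPM (next 23.4). All of these were highest in that liver. The clock genes Dbp, Per2, and Per3 were at 3.15, 5.95, and 8.75 CPM, below 37.4, 17.7, and 31.2 CPM, the lowest values of the other females. Acot3 (18.9 CPM) and Cyp2b13 (54.6 CPM) were lowest in that liver too. The females were also compared over 6357 genes with a mean of at least 10 CPM over the 41 livers. This set was not limited to autosomal genes and left out some of them. The highest or lowest female was taken as far where its gap to the next passed Dixon's critical share of the whole range. Values were on log2(CPM + 0.5). The far liver was female 10 in 136 genes (60 above and 76 below, 2.14%). It was female 3 in 76, and each of the other females in 46 or fewer. Without female 10, 894 autosomal genes were higher in males and 869 in females. The part of these livers in any group difference was not tested beyond leaving each out in turn.

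**Figure D5:**
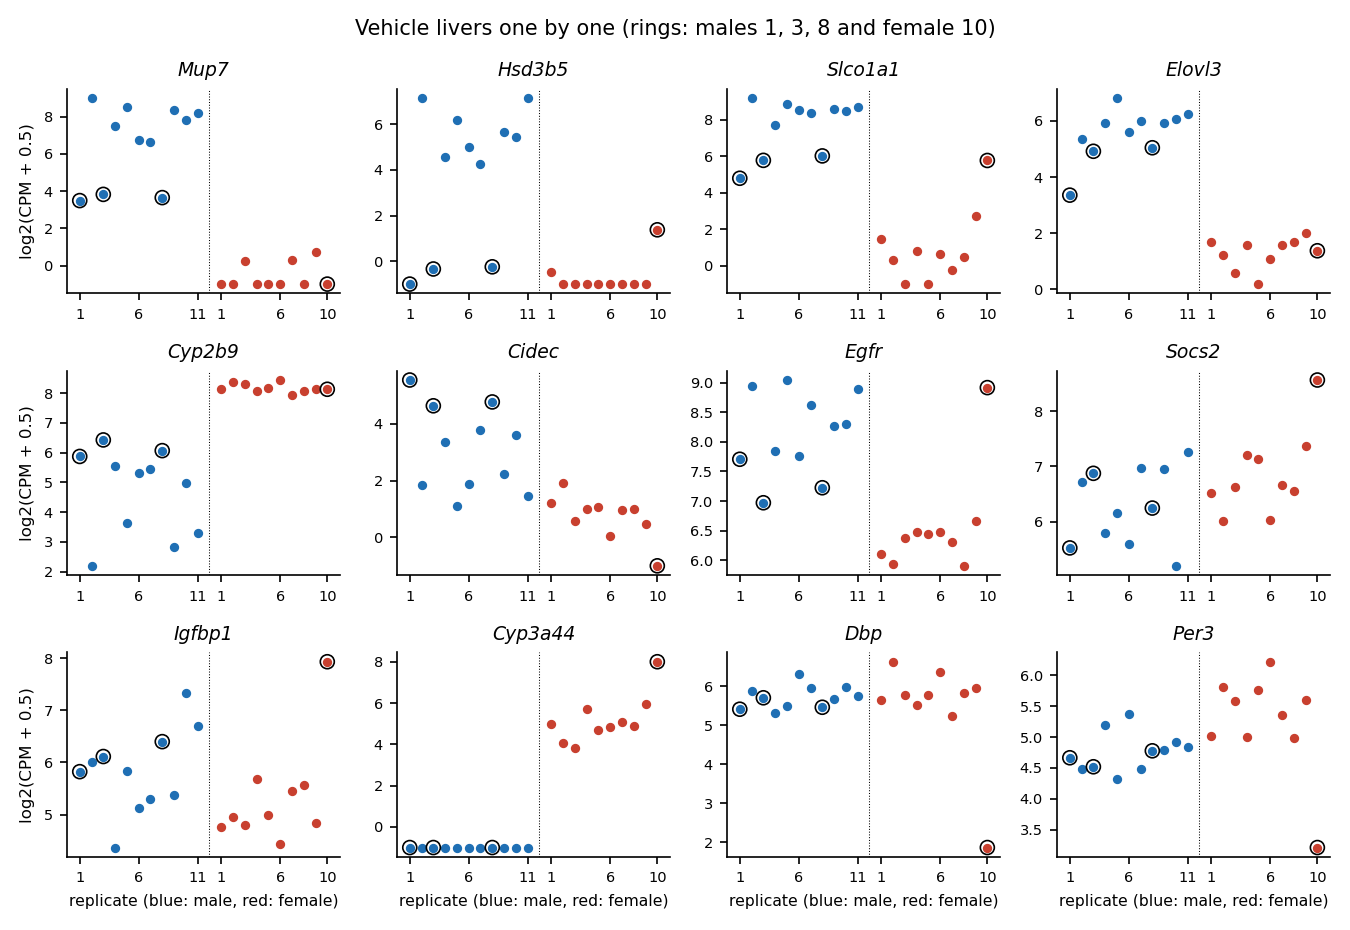
Level of 12 genes, as log2(CPM + 0.5), in each vehicle liver by replicate number, with males in blue on the left and females in red on the right of each panel, and rings on males 1, 3, and 8 and on female 10. The ringed males are low for Mup7, Hsd3b5, Slco1a1, and Elovl3 and high for Cyp2b9 and Cidec, and the ringed female is high for Egfr, Socs2, Igfbp1, and Cyp3a44 and low for Dbp and Per3.

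Each sex difference was then read in the FGF21-treated mice, which share no liver with the vehicle groups, in a fit of those 20 livers alone. There, 660 autosomal genes were higher in males (5.17%) and 731 in females (5.73%). Of the 919 genes higher in vehicle males, 888 had the same sign in FGF21-treated livers and 465 were called in the same direction, which is 50.6% of the vehicle calls and 70.5% of the FGF21 calls. Of the 894 genes higher in vehicle females, 862 had the same sign and 434 were called, which is 48.5% and 59.4%. No gene was called in opposite directions. Of the 191 genes that were 2-fold higher in vehicle males, 189 kept their sign and 144 were called again, and of the 215 in the female direction, 210 kept it and 128 were called again.

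For leading genes both differences are given side by side. The log2 fold change, males minus females, was 5.23 in vehicle and 5.28 in FGF21-treated livers for Cyp2d9, 1.55 and 1.48 for Abcg2, and 2.89 and 2.89 for C6. For genes higher in females it was -7.80 and -7.79 for Cyp2c40, -1.46 and -1.41 for Prlr, -1.72 and -1.61 for Esr1, and -3.66 and -3.32 for Hamp2. Among smaller differences, it was 1.35 and 0.25 for Pparg, 0.72 and -0.13 for Nr0b2, and 0.95 and 0.51 for Lpin2. The difference between the sex effects of both treatments, tested as an interaction in the fit of all 41 livers, was past the threshold for none of the autosomal genes (edgeR, smallest adjusted p 0.99), with 550 genes at an unadjusted p under 0.05.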

How the data were processed

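Liver RNA of 41 mice in 4 groups (vehicle and FGF21, males and females) was sequenced by the authors with a 3′ tag method (QuantSeq FWD). Values are raw counts per gene, as deposited by the authors. The first 11 bases of reads of 100 bases were trimmed, and the submitters' processing notes name FastQC, Bowtie2 2.3.4.1, STAR 2.6.0c and GRCm38. Whether molecular identifiers were merged and strand was used in counting is not given in the sources used here. A deposited table of CPM was not used.

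Genes were placed by their identifiers in GENCODE M21 (52489 of 52636 matched). Genes with a mean of at least 0.5 CPM over the 41 livers were kept, and the autosomal ones were reported. Just inside this limit lay a gene at 0.5 CPM and just outside one at 0.499 CPM. Counts were scaled by TMM and fitted with the 4 groups in edgeR 4.0.16 (R 4.3.3) by the quasi-likelihood test, robust, with vehicle males against vehicle females as the contrast and Benjamini-Hochberg adjusted p under 0.05 over all 13185 genes as the call. Levels are CPM on TMM-scaled totals, and errors of log2 fold changes are SE. Genes without a count in one sex were given a bound, with 3 counts over the group in place of 0. Pooled folds compare summed counts, and their 95% intervals cover counting error only, since reads are not independent molecules.

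Members and gene lists were chosen with earlier results of these data known. Genes were named by a rule: the 20 smallest p in each direction, the 5 largest folds in each direction among genes with a mean of at least 10 CPM in the higher sex, up to 4 called members of each list by p, and any member of the GH-STAT5, nuclear receptor and FGF21 lists. Other named genes, among them Alb, Cyp2c37, Cyp3a11, Cyp7a1, Saa1, Serpina3k, Sult2a8, Mup3 and Slco1a1, were chosen after their values were seen. Some genes that this rule names are not reported here. Lists are described by counts and medians beside those of all genes. Alternatives were limma-voom (limma 3.58.1), DESeq2 1.42.0, its size factors, library totals, other filters and thresholds, the vehicle livers alone, a replicate block, each vehicle liver left out in turn, and, chosen after seeing the data, TMM from autosomal genes. The edgeR fit and its test of vehicle males against vehicle females were tried on simulated counts. The other steps were not. The labels number the samples in each group without naming a shared batch or litter, so p-values measure the spread between these samples.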

Additional observations from a re-analysis of the deposited data

Results flagged for a closer look

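In 29 of 181 genes examined (16%) the highest or lowest of the 10 vehicle females lay farther from the next than Dixon's critical share of the group's range, on CPM. Chance flags about 1 in 20 groups of normally distributed values. Over the 6357 genes with a mean of at least 10 CPM described above, not limited to autosomal ones, the share was 7.94% on CPM. On log2(CPM + 0.5) it was 6.25%. Some of the 181 genes were chosen after their values were seen. In 16 of the 29 that liver was female 10. It was highest for Egfr (482 CPM, next 100.4), Socs2 (377, next 164), Cish (42.3, next 13.1), Igfbp1 (243, next 51.0), Cyp3a44 (256, next 62.5), Slco1a1 (53.9, next 6.16), Hsd3b5 (2.10, next 0.227), Srd5a1 (40.6, next 23.4), Cyp2c40 (458, next 292), Mup11 (74.2, next 40.8), Lpin1 (561, next 341), Mbl2 (1269, next 1116), Saa4 (291, next 219), and Saa1 (2199.5, next 1226). It was lowest for Chpt1 (107 CPM, next 155) and Abcd2 (35.0, next 80.6).

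The other 13 were spread over 6 livers. Female 1 was highest for Nat8f5 (0.227 CPM, next 0) and Cyp4a12b (0.227, next 0), where 1 count in a liver beside 9 livers at 0 passes by construction, and for Aatk (14.5, next 8.39), and Cfd (0.906, next 0.293). Female 2 was highest for Nat8 (2.92, next 1.63), Ttc39c (51.4, next 38.7), and Gstp1 (3.65, next 1.82). Female 3 was highest for Pparg (4.64, next 2.76) and Irs1 (59.3, next 47.5), female 6 for Abca3 (39.8, next 29.5) and Cidea (1.09, next 0.365), female 7 for Clec4f (46.7, next 30.6), and female 9 for Prlr (512, next 389).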

How the results depend on the processing

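Of 919 genes higher in males and 894 higher in females, limma-voom called 917 and 985, DESeq2 946 and 984, DESeq2 size factors in edgeR 893 and 907, no filter on low counts 783 and 859, a filter at a mean of 5 CPM 813 and 824, no robust estimation 930 and 888, the vehicle livers alone 817 and 774, and TMM from autosomal genes, chosen after seeing the data, 887 and 916. Library totals without TMM gave 523 and 1561, sharing 1417 of the 1813 calls, and an adjusted p under 0.01 gave 534 and 473. At 2-fold or more, the refit with the filter at a mean of 5 CPM called 109 and 84, against 191 and 215. Leaving out each vehicle liver in turn gave 812 to 994 genes higher in males and 793 to 941 in females, and 181 to 203 and 189 to 243 at 2-fold.

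The labels do not say whether the replicate numbers shared by the sexes pair the livers. Deviations of same-numbered livers correlated between -0.129 and 0.196 (median 0.051), over 0.1 in 3 of 10 pairs. Of the females, 2 correlated best with their own number. Low correlations cannot exclude a shared litter or batch, so pairing was not settled. With the replicate block 935 and 895 genes were called, and 182 and 193 at 2-fold.

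Of the 175 genes compared between settings, some fell below the 5 CPM filter and were not tested there. Fgf21, not called, changed sign by limma-voom (-0.13, against 0.40), where Hsd3b5 lost its call. Ghr lost its call and Igf1 gained one with library totals, Igf1 gained one with the 5 CPM filter, Nr1i3, Acacb and Fdps lost theirs in the vehicle livers alone, and 10 genes lost theirs at 0.01. The cause of these changes was not tested. The gap between the sexes, males minus females, in the mean log2 CPM of female-high genes was -3.19, -3.95 with a prior count of 0.25 and -1.67 with genes of log2 fold change of at least 1. That of male-high genes was 3.03, 3.66 and 1.87. In the fit of all 41 livers, 435 and 412 calls were found again in FGF21-treated mice, against 465 and 434. At these depths 3 counts came to a median of 1.03 CPM in males and 0.979 CPM in females, so a level under about that was not told from 0 in a single liver.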
